A study of Homo sapiens with 6 samples.

Results

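Genes of cell-to-cell junctions, F11R, JAM2, JAM3, ESAM, GJA1, GJA4, GJA5, GJC1, PLEKHA7 and TJP1, 10 in all, were followed in SET-2 cells by RNA sequencing. They were found by symbol, all 10 of them, among 19779 genes with a value in every library, and were chosen by family and by the log2 fold changes of this very comparison, in which JAM3, GJA5 and PLEKHA7 stood among the largest rises. Their differences between the lines are therefore given as a description, without a test. The libraries came from 3 cultures of SET-2 OTX P/R, the persister and resistant derivative raised against OTX, and from 3 cultures of the SET-2 parental line. OTX is taken to be birabresib, an inhibitor of BET bromodomain proteins. SET-2 is an established leukemia line of megakaryoblastic character, called secondary acute myeloid leukemia in the labels. Both lines were untreated and growing exponentially in RPMI1640 with fetal bovine serum, so no drug was present in either group. Since the labels name 1 derivative, resistance and any other change that arose in this line cannot be told apart. The labels call the samples biologic replicates and do not say how the cultures were separated, so intervals and p-values measure the spread between these cultures, which may be partly technical.

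Junctional adhesion molecules are immunoglobulin-family proteins that bind each other or integrins on a facing cell, and they act at tight junctions, in the passage of leukocytes through vessel walls and on platelets. Connexins assemble into hexameric channels that dock between cells as gap junctions and pass ions and small molecules. Scaffolds such as the protein encoded by TJP1 hold the tails of both kinds of protein, and PLEKHA7 ties the cadherin-catenin complex of the adherens junction to microtubules. Blood cells form no epithelial sheets, but megakaryocytes, platelets and hematopoietic progenitors are known to carry several of these proteins.

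The measurement was 1 StringTie abundance per gene and library, scaled by the authors so that all libraries share 1 set of values. Abundances of this kind are per transcript length, so levels may be compared between genes, but a value stands for a rank within its library and the sequencing depth is unknown. A log2 fold change is the OTX P/R mean minus the parental mean of log2(value + 1), which understates the change of low genes. Of the 10741 genes with a mean of at least 1, which were tested with limma, 1998 were higher and 1881 lower in OTX P/R cells at a Benjamini-Hochberg adjusted p under 0.05. Of 6 markers of the megakaryocyte-erythroid lineage 5 were present in both lines, with GATA1, its master transcription factor, at 203.9 ± 3.87 in OTX P/R cells and 188.7 ± 4.90 in parental cells (SD, n = 3 each). The fibrinogen receptor chain ITGA2B stood at 137.7 ± 3.73 in OTX P/R cells and 216.0 ± 11.5 in parental cells, while the platelet chemokine PF4 was listed at 0 in all 6 libraries. The 6 markers of that lineage summed to between 447.3 and 460.1 in OTX P/R libraries and between 444.5 and 464.2 in parental libraries, and of the 5 tested 3 rose, 1 fell and 1 did not pass. Fewer cells of a kind and less RNA per cell cannot be told apart in such bulk libraries.

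The RefSeq promoter table (build GRCh38.p14) held windows for 3 of the 10 genes, GJA1, GJA5 and TJP1. The windows of GJA5 are shown because it differed most among the connexins and has 2 starts in the table, between which a value per gene cannot distinguish, and 1 of the 4 windows of TJP1 is shown because it alone held the core of the TCF/LEF motif, TCF7L2 being named in the title of the series. Each is 250 bases ending just before the start, 5′ to 3′ on the gene's strand, with every match in capitals to the motifs searched on both strands: TCAAAG of TCF and LEF factors, GATAA of GATA factors, GGGCGG of SP and KLF factors, CACGTG of E-boxes and CATTCC of TEAD factors.
GJA5, first start, chr1:147773352-147773601, minus strand: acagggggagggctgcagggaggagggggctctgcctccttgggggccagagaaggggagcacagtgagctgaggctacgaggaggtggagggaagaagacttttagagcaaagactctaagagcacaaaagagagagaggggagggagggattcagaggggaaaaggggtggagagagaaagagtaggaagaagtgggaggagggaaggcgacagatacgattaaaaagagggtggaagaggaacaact
GJA5, second start, chr1:147760603-147760852, minus strand: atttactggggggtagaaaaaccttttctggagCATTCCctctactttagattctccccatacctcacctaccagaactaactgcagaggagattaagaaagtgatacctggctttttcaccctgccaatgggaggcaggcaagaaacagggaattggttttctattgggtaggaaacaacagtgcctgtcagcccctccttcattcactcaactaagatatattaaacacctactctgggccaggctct
TJP1, chr15:29821480-29821729, minus strand: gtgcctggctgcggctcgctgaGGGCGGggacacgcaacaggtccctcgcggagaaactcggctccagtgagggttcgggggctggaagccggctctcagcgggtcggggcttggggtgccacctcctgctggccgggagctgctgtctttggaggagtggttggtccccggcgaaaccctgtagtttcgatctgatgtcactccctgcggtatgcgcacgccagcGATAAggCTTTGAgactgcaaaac

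The first GJA5 window held none of these letters and the second held CATTCC once. The TJP1 window held GGGCGG for SP and KLF factors, GATAA for GATA factors and, on the opposite strand, TCAAAG for TCF and LEF factors, and no 2 of these matches overlapped. Over all 35116 windows of the table, 42.6% held the SP and KLF letters and 20.4% those of GATA. The TEAD letters were in 11.9%, those of TCF and LEF in 11.2% and the E-box in 6.34%, so how common a match is depends on the motif. Since the TJP1 window was shown for its TCF and LEF letters, that match follows from the choice of window. The GJA5 windows had 3 and 0 CpG dinucleotides and the TJP1 window shown had 19, where the median window had 11.

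Within the JAM family, JAM3 and ESAM were higher in OTX P/R cells, F11R was level and JAM2 was near 0 in both lines. JAM3, which encodes the family member that binds JAM2 and the leukocyte integrin of ITGAM and ITGB2, had 10.5, 12.2 and 11.2 in the OTX P/R libraries, against 0.550, 0.193 and 0.178 in the parental libraries. The groups did not overlap, and the gene stood at ranks 4783 to 5261 of its library in OTX P/R cells and at ranks 11247 to 12270 in parental cells. The means were 11.3 ± 0.873 in OTX P/R cells and 0.307 ± 0.210 in parental cells (SD, n = 3 each), a ratio of 36.9 that rests on parental values well under 1. Its log2 fold change was 3.25 ± 0.13 SE (95% interval 2.94 to 3.56), at place 5 of 10741 among the rises.

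ESAM encodes an adhesion molecule of endothelial cells, platelets and, in mice, hematopoietic stem cells. It had 77.6, 73.7 and 78 in the OTX P/R libraries, against 8.68, 13.1 and 13.0 in the parental libraries, without overlap. ESAM was the most abundant of the 10 genes in OTX P/R cells, at ranks 879 to 940, and came after F11R and GJA1 in parental cells, at ranks 4572 to 5856. The mean in OTX P/R cells was 6.58 times that in parental cells, and the log2 fold change was 2.64 ± 0.15 SE (95% interval 2.26 to 3.01). F11R, which encodes the widely expressed member that binds the integrin chain ITGAL, had 17.8, 17 and 17.4 in OTX P/R cells, against 17.2, 17.9 and 18.3 in parental cells. The F11R groups overlapped, and the 95% interval of the log2 fold change, -0.15 to 0.09, leaves room only for small differences on this scale. JAM2, the partner of JAM3 across cell contacts, ranged from 0.0131 to 0.0309 in OTX P/R cells and from 0.00798 to 0.0206 in parental cells, and was too low to be tested.

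**Figure D1:**
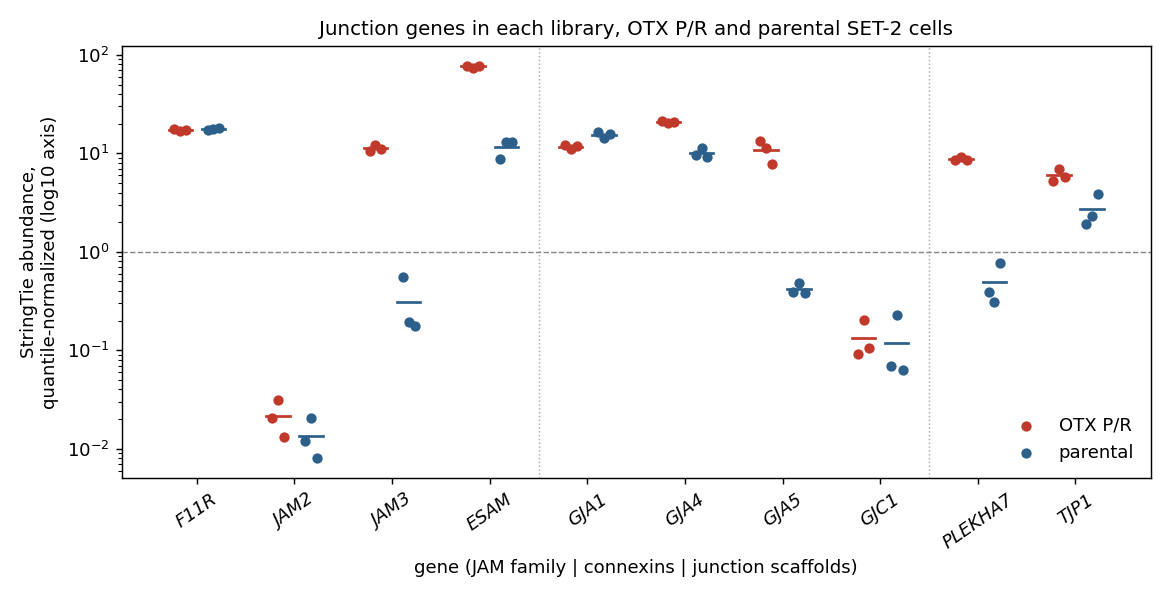
Abundance of the 10 junction genes in each library on a log10 axis, with OTX P/R libraries in red to the left of parental libraries in blue, group means as bars and the minimum mean of 1 for testing as a dashed line. JAM3, GJA5 and PLEKHA7 lie between 7.77 and 13.2 in the OTX P/R libraries and between 0.178 and 0.776 in the parental libraries, while F11R overlaps between the lines.

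The make-up of the family differed accordingly. The summed abundance of the 4 genes was 105.2 ± 1.95 in OTX P/R cells and 29.7 ± 2.86 in parental cells (SD, n = 3 each). ESAM made up 72.7% ± 0.948 of this sum in OTX P/R cells and 38.7% ± 5.12 in parental cells. F11R made up 16.5% ± 0.257 in OTX P/R cells and 60.1% ± 4.26 in parental cells, although its own level was alike in both. JAM3 made up 10.8% ± 1.01 in OTX P/R cells and 1.09% ± 0.860 in parental cells.

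Among the connexins, GJA5 and GJA4 were higher in OTX P/R cells, GJA1 was lower and GJC1 was near 0. GJA5, known for its part in conduction in the heart atria and in arterial endothelium, had 13.2, 11.4 and 7.77 in the OTX P/R libraries, against 0.393, 0.482 and 0.382 in the parental libraries. Its OTX P/R values had the widest spread of the 10 genes, with replicate 3 lowest, but that library was still far above every parental one. The means were 10.8 ± 2.79 in OTX P/R cells and 0.419 ± 0.0549 in parental cells (SD, n = 3 each), a ratio of 25.8 and a log2 fold change of 3.03 ± 0.18 SE (95% interval 2.59 to 3.47). It took the next place after JAM3 among the rises, at 6 of 10741.

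GJA4, a connexin of arterial endothelium that is also found in platelets, had 21.3, 20.1 and 20.8 in OTX P/R cells, against 9.59, 11.4 and 9.20 in parental cells. The groups did not overlap, and the log2 fold change was 0.98 ± 0.08 SE (95% interval 0.77 to 1.19). GJA1, the most widely expressed connexin, had 12.2, 11.1 and 11.8 in OTX P/R cells, against 16.4, 14.3 and 15.8 in parental cells. It was the 1 gene of the 10 that was lower without overlap, with a log2 fold change of -0.38 ± 0.07 SE (95% interval -0.55 to -0.21). GJC1, a connexin of embryonic heart and smooth muscle, ranged from 0.0915 to 0.205 in OTX P/R cells and from 0.0628 to 0.226 in parental cells and was not tested.

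GJA1, GJA4 and GJA5 together supplied nearly all of the connexin abundance in both lines. Over the 21 connexin genes in the table the sum was 46.1 ± 3.60 in OTX P/R cells and 28.0 ± 0.659 in parental cells (SD, n = 3 each). GJA4 led in OTX P/R cells with 45.1% ± 3.07 of the sum, against 35.9% ± 3.30 in parental cells. GJA1 had 25.4% ± 1.96 of the sum in OTX P/R cells and led in parental cells with 55.4% ± 4.94. GJA5 had 23.3% ± 4.46 in OTX P/R cells and 1.49% ± 0.16 in parental cells. Among the other connexins the table lists GJA10, GJB1, GJB6, GJD4 and GJE1 at 0 in every library, and none reached the minimum mean of 1. GJA3, a lens connexin, averaged 0.0306 ± 0.00999 in OTX P/R cells and 0.286 ± 0.0192 in parental cells.

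**Figure D2:**
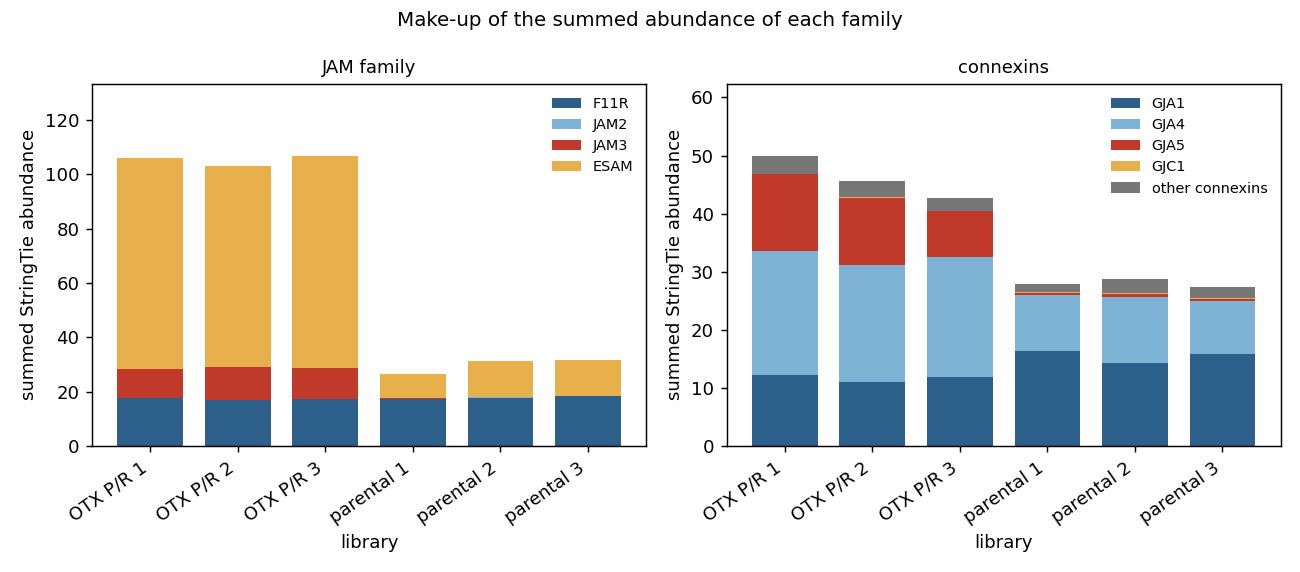
Summed abundance of the JAM family on the left and of all connexins on the right, 1 stacked bar per library with OTX P/R before parental. ESAM and JAM3 add most of the height in OTX P/R libraries while the F11R segment keeps its size, and the GJA5 segment holds 23.3% in OTX P/R libraries and 1.49% in parental libraries.

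Both scaffold genes stood higher in OTX P/R cells. PLEKHA7 had 8.67, 9.20 and 8.50 in the OTX P/R libraries, against 0.390, 0.311 and 0.776 in the parental libraries, again without overlap. The means were 8.79 ± 0.366 in OTX P/R cells and 0.493 ± 0.249 in parental cells (SD, n = 3 each), a ratio of 17.8, with a log2 fold change of 2.73 ± 0.12 SE (95% interval 2.42 to 3.03) at place 10 of 10741. TJP1 had 5.26, 6.98 and 5.74 in OTX P/R cells, against 1.94, 2.31 and 3.89 in parental cells. Its groups lay closest of those that did not overlap upward, parental replicate 3 being the nearest, and the log2 fold change was 0.94 ± 0.21 SE (95% interval 0.44 to 1.44). Without OTX P/R replicate 2 or without parental replicate 2 TJP1 was no longer among the genes limma called, at log2 fold changes of 0.84 and 0.88.

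Counted over the 10 genes, 8 passed the minimum mean of 1, and JAM3, GJA5 and PLEKHA7 did so only through their OTX P/R values, so that they had to differ. Of these 8, limma placed 6 among the higher genes, where the share of all tested genes is 18.6%, 1 among the lower, where it is 17.5%, and 1 in neither. The groups did not overlap for 7 of the 8, against 51.6% of all tested genes. These counts follow from how the genes were picked and show nothing further. By log2 fold change ESAM came next of the 10 after PLEKHA7, at place 14, and GJA4 and TJP1 stood at places 308 and 339.

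The order of levels differed between the lines. In OTX P/R cells it ran ESAM, GJA4, F11R, GJA1, JAM3, GJA5, PLEKHA7, TJP1, GJC1, JAM2, and the ranges of GJA1 with JAM3, JAM3 with GJA5 and GJA5 with PLEKHA7 overlapped. In parental cells it ran F11R, GJA1, ESAM, GJA4, TJP1, PLEKHA7, GJA5, JAM3, GJC1, JAM2, and the ranges of ESAM with GJA4 and of each next pair among PLEKHA7, GJA5, JAM3 and GJC1 overlapped. Over the log2(value + 1) of the 6 libraries, the tested gene nearest to JAM3 by Euclidean distance was GDF3, a growth factor of the TGF-beta family, at 0.571, followed by GJA5 at 0.710 and PLEKHA7 at 0.855. GDF3 was also nearest to GJA5, at 0.632. Nearest to PLEKHA7 were the mast cell protease CPA3 at 0.525, the transcription factor SP6 at 0.694 and GJA5 at 0.755. In a table of 2 groups such nearness reflects mainly a like level in each group.

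Chromosomal neighbours of JAM3, GJA5 and PLEKHA7 were set beside all tested genes, of which 18.6% were called higher and 17.5% lower. With 6 neighbours per gene such counts are small. JAM3, ESAM and PLEKHA7 lie on chromosome 11, GJA4, GJA5 and F11R on chromosome 1, GJA1 on 6, TJP1 on 15, GJC1 on 17 and JAM2 on 21. Of the 3 nearest tested genes on each side of JAM3 none was called, with log2 fold changes from -0.08 for SNX19 to 0.54 for APLP2. Around PLEKHA7 none of the 6 was called either, from -0.06 for C11orf58 to 0.94 for NUCB2, whose values varied widely between cultures. Around GJA5 1 of 6 was called higher and 1 lower, near the shares of all tested genes. ACP6 rose by a log2 fold change of 0.42, AC245100.1 fell by 1.44 on the log2 scale, and CHD1L, BCL9, GPR89B and NBPF11 were not called. Among the 20 tested genes between ESAM and JAM3 the median log2 fold change was 0.04, and 2 were called higher and none lower.

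The neighbours of several other members were called more often. Around GJA4, 4 of 6 neighbours were called higher and none lower, with log2 fold changes up to 1.76, beside 0.98 for GJA4 itself. Around TJP1, 3 of 6 were called higher and none lower, up to 0.92, beside 0.94 for TJP1. Around GJA1, 3 of 6 were called lower and 1 higher, from -0.43 to 1.89, beside -0.38 for GJA1. Beside ESAM, NRGN rose to 142.4 ± 4.44 in OTX P/R cells, against 40.4 ± 1.44 in parental cells (SD, n = 3 each), and VSIG2, another immunoglobulin-family gene, to 7.33 ± 0.480, against 1.86 ± 0.268. Around GJC1, on chromosome 17, 5 of 6 neighbours were called lower, among them CCDC43 with a log2 fold change of -0.95. Of all 680 tested genes of chromosome 17, 29.3% were called lower, against 17.5% of all tested genes. NCAPD3, which overlaps JAM3 on the opposite strand in GENCODE v29, was at 24.4 ± 1.45 in OTX P/R cells and 23.8 ± 1.88 in parental cells. F11R shares its strand with a longer gene listed as RP11-544M22.13, at 22.2 ± 0.813 in OTX P/R cells and 21.6 ± 0.419 in parental cells. Whether reads were counted by strand, and how shared reads were split, is not given in the sources used here, so values of overlapping genes are uncertain.

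**Figure D3:**
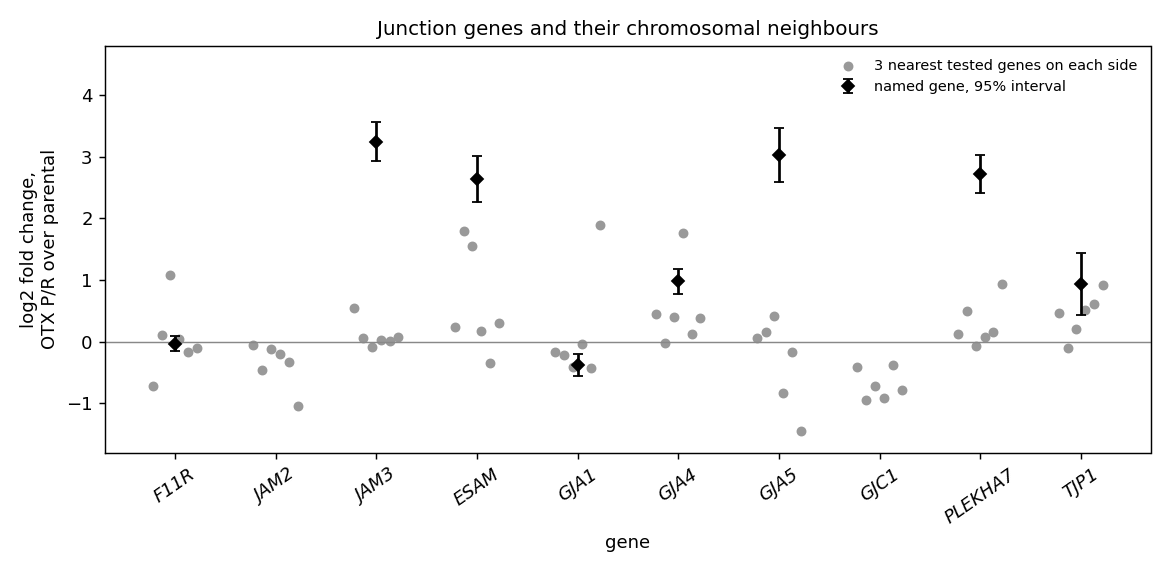
Log2 fold changes of the 8 tested junction genes as black diamonds with 95% intervals, and of the 3 nearest tested genes on each side of all 10 as grey points, gene by gene; JAM2 and GJC1 were too low to be tested. JAM3 at 3.25, GJA5 at 3.03 and PLEKHA7 at 2.73 stand above all of their own neighbours, of which the highest are at 0.54, 0.42 and 0.94. GJA4 at 0.98 lies below its highest neighbour at 1.76, and TJP1 at 0.94 lies close to its highest at 0.92.

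The other genes of cell junctions, 122 in 8 lists written from textbook roles, moved in both directions. Most were low: 83 did not reach the minimum mean, 15 of them at 0 in every library. Of the 39 tested, 10 rose, 8 fell and 21 did not pass in the limma test, so 46.2% were called, where 36.1% of all tested genes were. Their median log2 fold change was -0.05, beside 0.02 over all tested genes, and no test was made of the lists as such.

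The partners of the JAM proteins split by integrin chain, with 2 of 7 higher, 3 lower and 2 not called. ITGB3, the beta chain that pairs with ITGAV and ITGA2B, rose to 21.0 ± 1.04 in OTX P/R cells, against 4.83 ± 0.585 in parental cells (limma adjusted p = 3.78e-05). ITGB2, the beta chain of the leukocyte integrins, rose to 154.5 ± 11.6 in OTX P/R cells, against 89.4 ± 3.55 in parental cells (limma adjusted p = 3.69e-04). ITGAM, whose product joins that of ITGB2 to bind JAM3, fell to 3.45 ± 0.411 in OTX P/R cells, against 8.13 ± 0.237 in parental cells (limma adjusted p = 2.62e-04). ITGA4, the alpha chain through which JAM2 is bound, fell to 68.7 ± 5.03 in OTX P/R cells, against 130.1 ± 19.0 in parental cells. ITGAL, the alpha chain that binds F11R, fell by 0.71 on the log2 scale with a limma adjusted p = 0.0326, and this call was lost without OTX P/R replicate 2, OTX P/R replicate 3 or parental replicate 2, where the highest adjusted p was 0.0942. Its means were 0.552 in OTX P/R cells and 1.56 in parental cells, so it reached the minimum mean of 1 only through its parental values. ITGB1 and ITGAV did not pass.

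Of 7 partners and relatives of PLEKHA7, 6 were tested, and 2 rose, 1 fell and 3 did not pass. TSPAN33, a tetraspanin that PDZD11 and PLEKHA7 bring to junctions together with the protease ADAM10, had 27.1 ± 0.221 in OTX P/R cells and 3.73 ± 0.745 in parental cells, a log2 fold change of 2.58 ± 0.12 SE (limma adjusted p = 4.12e-05). PLEKHA6, a relative with the same kind of lipid-binding domain, rose to 3.04 ± 0.128 in OTX P/R cells, against 1.01 ± 0.0950 in parental cells. PDZD11, the adaptor between PLEKHA7 and its partners, fell to 14.4 ± 1.31 in OTX P/R cells, against 22.3 ± 2.14 in parental cells. ADAM10 did not pass, at 8.34 ± 0.382 in OTX P/R cells and 10.3 ± 1.64 in parental cells, and nor did PLEKHA4 and PLEKHA5.

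The adherens junction list had 2 of 4 tested genes lower and none higher. JUP, the plakoglobin that can stand in for beta-catenin at cadherins, fell to 5.77 ± 0.265 in OTX P/R cells, against 18.3 ± 2.42 in parental cells, a log2 fold change of -1.50 ± 0.10 SE (limma adjusted p = 1.27e-04). CTNNA1, which links cadherin complexes to actin, fell by 0.44 on the log2 scale (limma adjusted p = 0.0337), but the call was lost with any 1 of the 6 libraries left out, at adjusted p from 0.0513 to 0.0836. CTNND1, the p120 catenin to which PLEKHA7 binds, had 19.8 ± 0.438 in OTX P/R cells and 19.8 ± 0.377 in parental cells. CTNND1 and CTNNB1, the gene of beta-catenin, did not pass, and the 7 genes of the list not tested, the cadherins CDH1 and CDH5 among them, stayed under the minimum mean.

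The called claudins and nectins rose and the called pannexins fell. CLDN10, which forms paracellular ion channels, rose to 34.0 ± 2.29 in OTX P/R cells, against 16.0 ± 3.53 in parental cells, and CLDN15, a cation-channel claudin of the gut, to 4.30 ± 0.482, against 1.44 ± 0.0442. These were 2 of 3 tested among 26 claudins and MARVEL proteins. NECTIN1 and NECTIN2, listed under the older symbols PVRL1 and PVRL2, and PVR, adhesion proteins of the nectin family and the 3 tested of 13 junctional immunoglobulin-family genes, all rose, by log2 fold changes of 0.46, 0.31 and 0.62. The NECTIN2 call was lost without OTX P/R replicate 1, OTX P/R replicate 2, parental replicate 2 or parental replicate 3, at adjusted p up to 0.0931. PANX1 and PANX2, which form channels resembling those of connexins, fell by 0.76 and 0.52 on the log2 scale, with limma adjusted p = 0.00217 and 0.00215. PANX2, at 0.900 in OTX P/R cells and 1.73 in parental cells, reached the minimum mean of 1 only through its parental values, so its call is no separate support.

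Among 25 tight junction scaffolds and polarity proteins 11 were tested, and PARD6A, a subunit of the cell polarity complex that JAM proteins recruit, was the only one called, at 5.23 ± 0.175 in OTX P/R cells and 2.72 ± 0.141 in parental cells. AFDN, which joins nectins to actin, averaged 1.80 ± 0.552 in OTX P/R cells and 5.64 ± 2.99 in parental cells and did not pass, its groups overlapping (limma adjusted p = 0.0703). PARD3, the direct partner of JAM tails, was under the minimum mean with 1.59 ± 0.207 in OTX P/R cells and 0.208 ± 0.0387 in parental cells. None of the 3 tested desmosome genes of 13 was called.

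**Figure D4:**
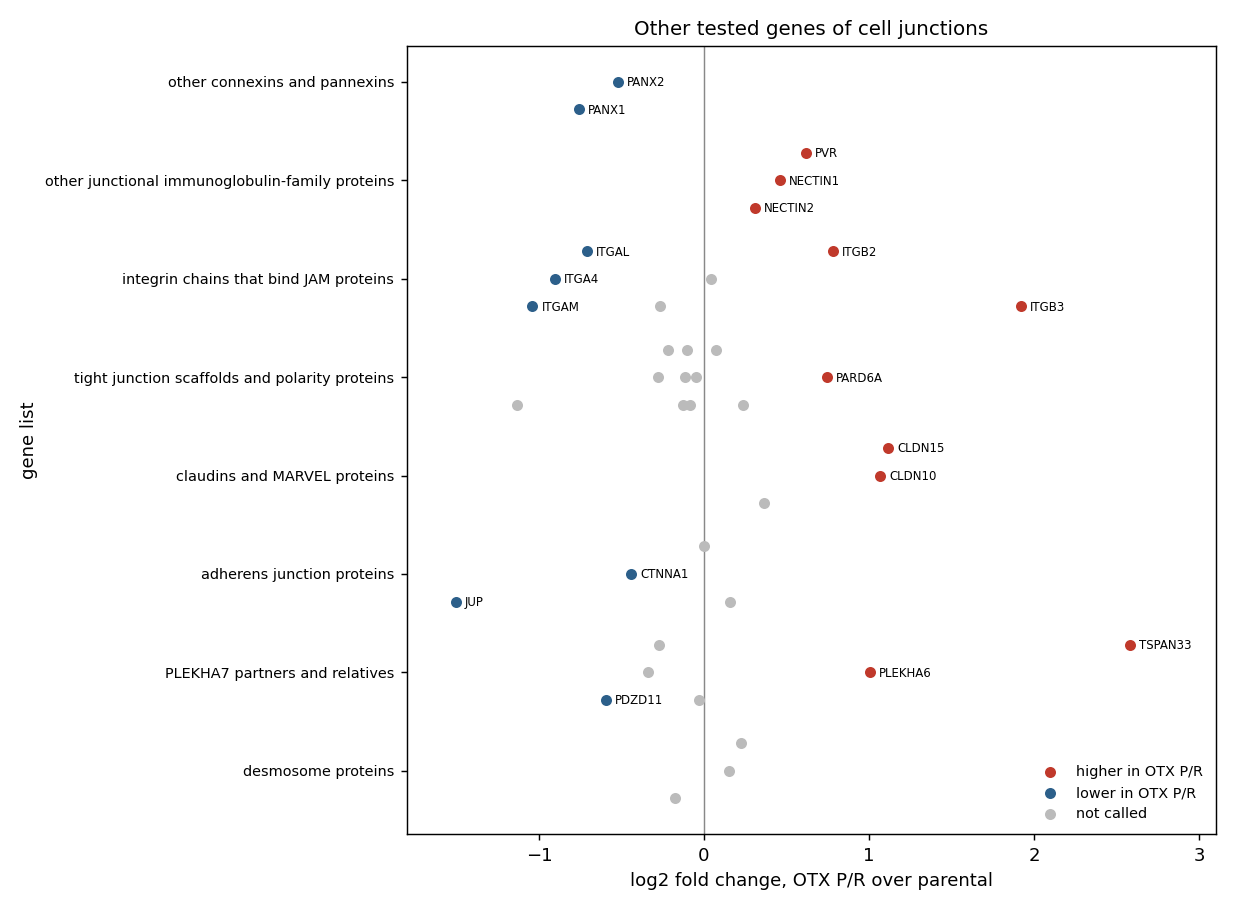
Log2 fold changes, OTX P/R over parental, of the 39 other tested junction genes by list, 1 point per gene, red for higher, blue for lower and grey for not called in the limma test. TSPAN33 at 2.58 and ITGB3 at 1.92 lie farthest to the right and JUP at -1.50 farthest to the left.

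Several of the 10 genes are best known from vessel walls and epithelia, so markers of those cells were read alongside. Of 7 endothelial markers PECAM1, which platelets and leukocytes share, was the 1 tested, and rose to 15.3 ± 0.541 in OTX P/R cells, against 7.90 ± 0.616 in parental cells (limma adjusted p = 2.68e-04). TEK was listed at 0 in all 6 libraries, KDR averaged 0.0217 in OTX P/R cells and 0.0184 in parental cells, and VWF, also a megakaryocyte product, 0.00202 in OTX P/R cells and 0.00904 in parental cells. CDH5 averaged 0.245 ± 0.0184 in OTX P/R cells and 0.00216 ± 0.00191 in parental cells. EMCN averaged 0.157 in OTX P/R cells and 0.0737 in parental cells, and CLDN5 0.104 in OTX P/R cells and 0.111 in parental cells. The endothelial list summed to between 15.3 and 16.5 in OTX P/R libraries and between 7.46 and 8.71 in parental libraries, almost all of it PECAM1.

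Of 5 epithelial markers KRT18 was the 1 tested and rose to 14.3 ± 1.20 in OTX P/R cells, against 9.52 ± 0.884 in parental cells, while EPCAM, KRT8, KRT19 and CDH1 stayed under the minimum mean. That list summed to between 13.9 and 16.2 in OTX P/R libraries and between 8.95 and 11.7 in parental libraries. No fibroblast marker of 5 was tested, and their sum lay between 1.99 and 2.07 in OTX P/R libraries and between 0.245 and 0.293 in parental libraries. COL1A1 averaged 1.92 of that sum in OTX P/R cells and 0.0732 in parental cells, where PDGFRB, at 0.151, supplied more of it. The part of the markers in these differences was not tested.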

How the data were processed

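RNA of 6 cultures, 3 OTX P/R and 3 parental, was sequenced. Trim Galore, HISAT2, StringTie and build hg19 are named in the submitters' processing notes; the sources used here give no versions, no annotation and no choice between FPKM and TPM. The authors deposited a linear signal, the StringTie abundance of each gene. Sorted, the libraries lie within 0.243% of each other at values of 1 or more, so the authors' table is quantile-normalized: ranks are kept and depth is not, and no counting intervals are given. Of 19785 genes, 6 with a missing value were left out.

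Groups were taken from sample titles. The 10741 genes whose mean reached 1 were tested on log2(value + 1) by limma 3.58.1 under R 4.3.3 (eBayes with a mean trend, two-sided, Benjamini-Hochberg over all tested genes, threshold 0.05). The procedure was tested on simulated data. Exact permutation of 3 against 3 cannot go below a two-sided p of 0.1, so adjusted p-values come from limma alone. The members, lists and tests were chosen with earlier results of these data known. Named genes are all members, up to 3 called genes per direction and list, the 3 nearest tested neighbours on each side of members, and the 3 tested genes nearest in level to JAM3, GJA5 and PLEKHA7; list genes without a call are given by value in places. The neighbours named for ESAM and GJC1, the overlapping genes and the list genes under the minimum mean were chosen after their values were seen. GENCODE v29 and the promoter table are on GRCh38, not the authors' build, and were matched by identifier (19528 genes) or symbol; GENCODE gave only chromosome, gene order and overlap. Nothing in the labels says that equal replicate numbers pair cultures, so the main fit has no replicate block. Same-numbered libraries also did not deviate together. Python 3.11.15, pandas 2.3.3, NumPy 2.4.6 and Matplotlib 3.10.9 prepared tables and plots. Some genes that the naming rule covers are left out of the text.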

Additional observations from a re-analysis of the deposited data

How the results depend on the processing

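The 15 alternatives covered the pseudocount (0.1 or 5), the filter (none, or a mean of 5), the variance prior (no trend, or robust), median centring, ranking again without HBE1, the replicate block and each library left out. The direction of every tested junction gene of the 10 held under each alternative that could test it. The size of the largest rises depends on the pseudocount: with 0.1 and 5 in place of 1 the log2 fold change was 4.92 and 1.62 for JAM3, 4.36 and 1.53 for GJA5 and 3.99 and 1.33 for PLEKHA7, because their parental values lie under 1. That of TJP1 was 0.52 with a pseudocount of 5. PLEKHA7 and TJP1 were not tested with a minimum mean of 5.

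Without a filter on low values 18 other junction genes were higher, against 10, and 12 lower, against 8, because more genes were tested. The calls of ITGAL, CTNNA1 and NECTIN2 were lost in that setting. Over the libraries left out, the other junction genes called higher numbered 9 to 11 and those called lower 6 to 8. With the replicate block, 10 were higher and 9 lower, 18 of them called in both fits, and over all tested genes 1607 were higher and 1552 lower. Same-numbered libraries had correlations of their deviations of -0.06, -0.03 and 0.00. These values do not settle whether same-numbered cultures were prepared together, which the labels do not say. Parental levels of JAM3, GJA5 and PLEKHA7 are near the low end of the table, where the unknown depth limits their precision and that of any ratio to them.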
